A study of Mus musculus with 76 samples.

Results

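Cftr, Ano4, Ano1, Ano6 and Clca3b are 5 genes of chloride transport and its regulation, followed here across mouse tumours that were maintained by introduced genes, in 13 groups. They were listed by symbol and chosen by their levels in MAP3K11 tumours and, for Cftr and Clca3b, on single MAP3K7 arrays, so those levels are given as a description without a test. The 5 genes are read by 8 of the 45101 probe sets, out of 18194 genes measured, and the brightest probe set stands for each gene. All 5 passed the filter on low values. Ano1 and Ano6 lay above the 40th percentile of the array on all 76 arrays, while Cftr and Ano4 did so on 6 arrays and Clca3b on 7, so Cftr, Ano4 and Clca3b passed through the few arrays where they are high.

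CFTR is a chloride and bicarbonate channel of the apical membrane of epithelia that opens after phosphorylation by protein kinase A and ATP binding. It sets fluid secretion in airway, gut, pancreas and sweat gland, and its loss causes cystic fibrosis. The anoctamins are a family of membrane proteins that contains calcium-gated chloride channels, among them ANO1 of secretory epithelia and pacemaker cells, and calcium-gated lipid scramblases, among them ANO6. CLCA proteins are not channels: they are cleaved and secreted proteins, and human CLCA1 raises ANO1 current at the cell surface. ANO1 is also known for high expression in some human breast and head and neck carcinomas.

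In the model, a tumour of C57BL/6 mice grew on a doxycycline-inducible HER2 oncogene with the change V659E. Doxycycline was then withdrawn and a gene introduced, so every group shares that origin and differs in what followed. The RON+MSP group is labelled with a receptor and its ligand. The groups are MAP3K11 (MLK3), MAP3K7 (TAK1), ErbB3, FAK1, FGFR2aIIIb, FGFR2aIIIc, FGFR3, HER2, PIP5K1B, RON+MSP, RONd160, RSK2 and TNK2, with 4 arrays for FAK1 and 6 for each of the other 12. MAP3K11 tumours are labelled with cachexia and the other 70 arrays without it, so introduced gene and cachexia cannot be told apart for that group. The arrays also carry a T1, T2 or T3 that the labels do not define, and animals' ages were not used here. The titles call the arrays biological replicates, but nothing in the labels names separate animals, so p-values measure the spread between arrays.

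Values are log2 intensities as the authors deposited them. The median of 3 control probe sets for a bacterial gene was 2.95, and single control values ran between 2.18 and 3.38. A value in that range has no order. Array medians lay between 5.45 and 5.56. Within each group the arrays fell into pairs, 38 in all, by the pattern of their 19 autosome medians, with a median correlation of 0.96 inside a pair and 0.16 between other arrays of a group. A pair never shared its T label, and what a pair is was not tested. The luminal epithelium markers lay above the control level on average in every group. Their centred mean was 0.50 to 1.02 on MAP3K11 arrays, against -1.54 to 0.82 on the other 70. Of the other lists, skeletal muscle was low on MAP3K11 arrays (-2.53 to -2.28, against -2.55 to 4.77 on the other 70), with Myh1 and Myh4 at the control level there. In bulk tumour RNA, fewer cells of a type and less RNA per cell cannot be told apart.

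One pair stood apart. On MAP3K7 T1 replicate 2 and T3 replicate 1, Braf read 12.42 and 12.41, against 8.12 to 8.19 on the other 4 MAP3K7 arrays and 7.71 to 8.38 on the 74 arrays without the pair. Braf encodes a serine/threonine kinase that activates MEK, and it lies on the same chromosome as Cftr (chromosome 6, 39603231 to 39725658). Of its 9 probe sets, 8 read higher on both of these arrays than on any other, and 1 did not (5.16 and 5.67, against up to 5.74 elsewhere). Snap25, a synaptic vesicle fusion protein, read 7.68 and 8.10 there, against at most 3.58 on any other array. The F tests and called differences of Ano1 and Ano6 below are therefore given with and without these arrays. Shares of all genes called are given for fits with them only. Values for single chloride transport genes in MAP3K11 and the T label tests come from fits with them, apart from the alternatives at the end. The part of Braf or Snap25 in any of these results was not tested.

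The promoter windows of the 3 genes that were near the control level in most tumours are shown because all 3 read above the highest control value on all 6 MAP3K11 arrays, Clca3b on 2 of them much less than on the other 4. They are the 250 bases before and the 50 after the start in RefSeq's GRCm38.p6 annotation, given 5′ to 3′ on the strand of the gene. Cftr is on the plus strand at chr6:18170437-18170736, Ano4 on the minus strand at chr10:89257741-89258040, inside the annotated span of the gene, and Clca3b on the minus strand at chr3:144849253-144849552. Capitals mark matches on either strand. The motifs searched were the GC box, spelled GGGCGG here. The second was the CCAAT box. The forkhead motif was spelled TGTTTAC in this search. The AP-1 motif was spelled TGANTCA with any base in the middle, and the core of the cAMP response element was spelled TGACGT with no other form.
Cftr: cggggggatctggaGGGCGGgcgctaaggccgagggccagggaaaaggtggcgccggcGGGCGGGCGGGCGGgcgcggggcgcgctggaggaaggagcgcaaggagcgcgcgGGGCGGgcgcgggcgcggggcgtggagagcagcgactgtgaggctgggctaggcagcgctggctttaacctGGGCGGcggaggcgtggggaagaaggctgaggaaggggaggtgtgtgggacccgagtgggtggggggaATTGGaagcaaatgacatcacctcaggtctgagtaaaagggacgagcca
Ano4: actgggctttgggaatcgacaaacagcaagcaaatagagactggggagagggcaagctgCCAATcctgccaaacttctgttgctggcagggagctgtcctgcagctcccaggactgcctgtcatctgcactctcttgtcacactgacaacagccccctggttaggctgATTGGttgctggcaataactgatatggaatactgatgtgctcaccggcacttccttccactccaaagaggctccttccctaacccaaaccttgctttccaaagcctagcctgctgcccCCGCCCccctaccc
Clca3b: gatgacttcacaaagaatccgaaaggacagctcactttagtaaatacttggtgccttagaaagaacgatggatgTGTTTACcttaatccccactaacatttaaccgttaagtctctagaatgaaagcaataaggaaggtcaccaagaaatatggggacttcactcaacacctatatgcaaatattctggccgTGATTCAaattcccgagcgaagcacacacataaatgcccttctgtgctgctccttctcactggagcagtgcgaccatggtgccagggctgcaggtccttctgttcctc

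No motif searched was in all 3 windows, while Cftr and Ano4 both held the GC box and the CCAAT box. The Cftr window is 71.3% G or C, with a higher share than 92.2% of the 32851 promoters in the table, and holds 6 GC boxes and 1 CCAAT box, some of the GC boxes overlapping. The Ano4 window is 55.3% G or C and holds 1 GC box and 2 CCAAT boxes. The Clca3b window is 45% G or C, holds neither box, and has 1 forkhead and 1 AP-1 match, which Cftr and Ano4 lack. The cAMP response element core is in none of the 3. Over all promoters, GC boxes are in 35.7%, CCAAT boxes in 37.4%, AP-1 matches in 7.81%, cAMP response element cores in 7.51% and forkhead matches in 3.65%. The windows of Ano1 and Ano6 hold 4 and 3 GC boxes and none of the other motifs, at 71.7% and 69.7% G or C. A match describes letters only.

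Cftr spans chromosome 6, 18170687 to 18322770. On the 6 MAP3K11 arrays its brighter probe set read 8.55, 8.33, 7.85, 8.17, 8.32 and 7.74. On the 64 arrays of the 11 groups other than MAP3K11 and MAP3K7 it ran from 2.11 to 3.26, with a median of 2.59, which is within the range of the control probe sets. The MAP3K11 arrays formed a narrow band that did not overlap with any other group, and the lowest of them lay 3.10 above the highest other array. The fitted difference of MAP3K11 from the mean of the other 12 groups was 5.51 on the log2 scale (SE 0.13), given without a test because this contrast was known when Cftr was chosen. Since the other groups read at the control level, the difference is not a fold change of Cftr RNA.

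The MAP3K7 arrays were the only others with Cftr above the highest control value. MAP3K7 T1 replicate 2 read 4.64 and T3 replicate 1 read 3.75. The other 4 MAP3K7 arrays, T1 replicate 1, T2 replicate 1, T2 replicate 2 and T3 replicate 2, read 2.65, 2.68, 2.47 and 2.81. The higher values are those of the pair with high Braf, and both lie well under the MAP3K11 arrays. No test of Cftr among these groups is given, since the other arrays lie in or below the control range.

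Cftr has a second probe set that does not show this pattern. The dimmer probe set read 2.60, 2.79, 2.61, 2.41, 2.59 and 2.49 on the MAP3K11 arrays and 2.21 and 2.34 on MAP3K7 T1 replicate 2 and T3 replicate 1. All of these lie at the control level. The probe sets correlated at r = 0.59 over the 76 arrays and at 0.13 over the 70 arrays without MAP3K11. With the mean of both probe sets in place of the brighter one, the MAP3K11 difference of Cftr was 2.92. Which transcripts of the gene either probe set reads was not tested. The scatter of the probe sets shows this beside Ano1, whose probe sets moved together.

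**Figure D1:**
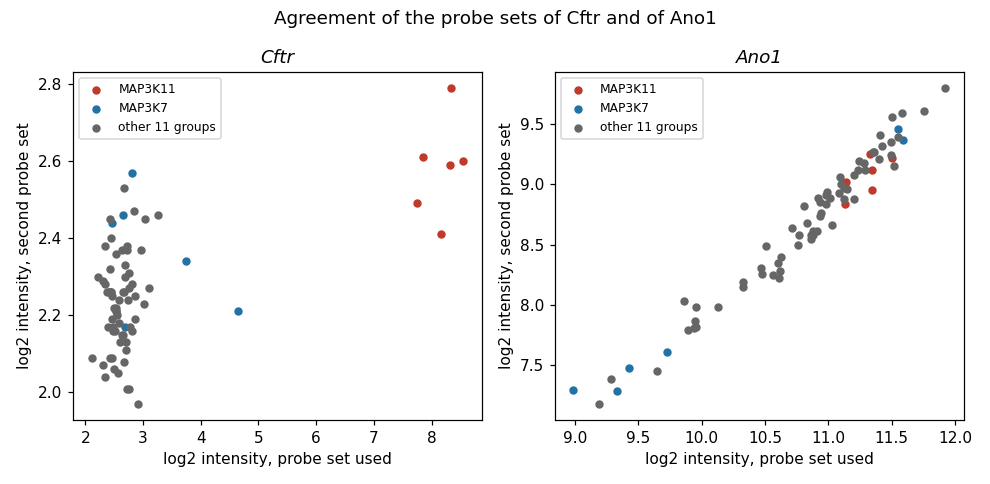
Log2 intensity of the probe set used (x axis) and of the second probe set (y axis) of Cftr and of Ano1, 1 point per array, 76 arrays. For Cftr the MAP3K11 arrays (red) are far to the right with little height above the rest (r = 0.59), while for Ano1 the probe sets rise together over all groups (r = 0.98).

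Ano4 encodes an anoctamin of the nervous system that has been described as a calcium-gated cation channel and scramblase. It spans chromosome 10, 88948932 to 89345205, and has 1 probe set here. On the MAP3K11 arrays it read 8.71, 8.69, 8.21, 8.65, 8.49 and 8.16. On the other 70 arrays it ran from 2.39 to 3.20, with a median of 2.67. No array outside MAP3K11 exceeded the highest control value, and the gap between the groups was 4.97. The fitted difference was 5.80 (SE 0.06), again a description.

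In contrast to Cftr and Clca3b, Ano4 read 2.92 and 2.89 on MAP3K7 T1 replicate 2 and T3 replicate 1. The other 4 MAP3K7 arrays read between 2.58 and 2.84. All 6 are in the range of the control probe sets. The highest value outside MAP3K11 was 3.20, on PIP5K1B T2 replicate 1, whose pair partner T3 replicate 1 read 3.00. No order among these groups can be read.

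Clca3b lies on chromosome 3, 144822623 to 144849302, next to its close relatives Clca3a1 and Clca3a2. Cross-hybridisation within this family was not tested, so the level of each is uncertain. On the MAP3K11 arrays T1 replicate 1, T2 replicate 1, T3 replicate 1 and T3 replicate 2 it read 9.05, 10.49, 9.77 and 9.41. On MAP3K11 T1 replicate 2 and T2 replicate 2, which form a pair, it read 4.72 and 4.89. All 6 MAP3K11 arrays were above the highest control value, in 2 separate bands. Cftr and Ano4 did not split in this way on the same arrays.

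On MAP3K7 T1 replicate 2 and T3 replicate 1 Clca3b read 8.40 and 8.11. On the other 4 MAP3K7 arrays it read 2.88, 2.21, 3.09 and 2.91. The MAP3K7 pair thus lay above the low MAP3K11 pair and below the other 4 MAP3K11 arrays, and the MAP3K7 and MAP3K11 groups overlapped. FGFR2aIIIb T1 replicate 1 and T2 replicate 1, also a pair, read 3.68 and 3.60, and the rest of those 11 groups lay between 2.28 and 3.23. The MAP3K11 difference of 5.15 (SE 0.46) is a mean over the bands and describes none of the arrays.

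The relatives followed Clca3b on these 12 arrays. Clca3a1 read 8.10, 8.79, 8.15 and 8.48 on the MAP3K11 arrays with high Clca3b and 5.66 and 5.89 on the low pair. It read 8.26 and 8.38 on the MAP3K7 pair and 4.51 to 5.85 on the other 4 MAP3K7 arrays. Over the 12 arrays its correlation with Clca3b was 0.97, which is a description of probe sets that may share RNA. Over all 76 arrays the same correlation was 0.44. In FGFR2aIIIc, Clca3a1 read 7.23 to 7.45 with Clca3b at 2.53 to 3.22. Clca3a2 read 5.26, 5.97, 5.74 and 5.74 on the MAP3K11 arrays with high Clca3b and 3.28 and 3.35 on the low pair. On the MAP3K7 pair it read 4.37 and 4.30, but MAP3K7 T3 replicate 2 read 5.64 with Clca3b at the control level. The FGFR2aIIIb pair with Clca3b at 3.68 and 3.60 had the highest Clca3a1 of its group, 11.40 and 11.11, against 7.47 to 8.73 on the other 4 FGFR2aIIIb arrays. Elsewhere the genes parted, as on RSK2 T2 replicate 2, where Clca3a2 read 8.98 and Clca3b 2.48.

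**Figure D2:**
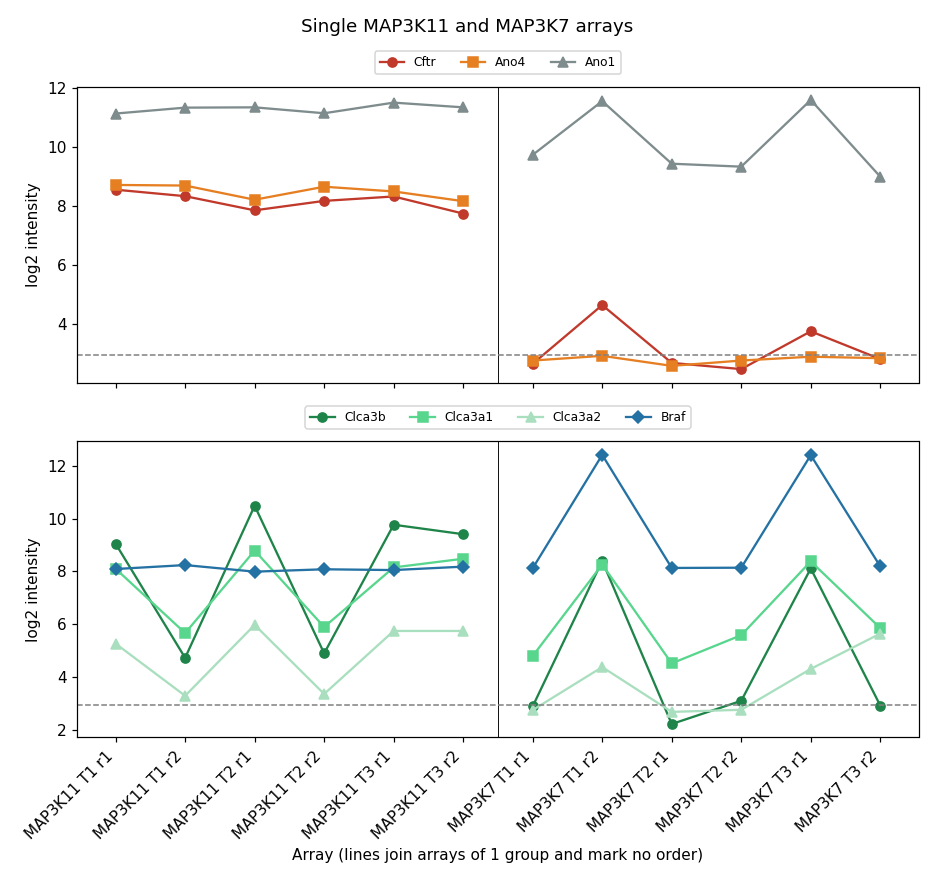
Log2 intensity (y axis) of Cftr, Ano4 and Ano1 (upper panel) and of Clca3b, Clca3a1, Clca3a2 and Braf (lower panel) on each MAP3K11 and MAP3K7 array (x axis, r for replicate), with the control level dashed at 2.95. Cftr, Clca3b and Ano1 are high with Braf on MAP3K7 T1 replicate 2 and T3 replicate 1, Ano4 is not, and Clca3b is low on MAP3K11 T1 replicate 2 and T2 replicate 2.

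Ano1, the calcium-gated chloride channel of the set, was bright in every tumour. It spans chromosome 7, 144588549 to 144752026. In order of the group means it read 11.43 in HER2, 11.41 in FGFR2aIIIb, 11.30 in MAP3K11, 11.18 in FGFR2aIIIc, 11.16 in FAK1, 11.12 in RONd160, 10.95 in TNK2, 10.82 in FGFR3, 10.65 in RON+MSP, 10.49 in RSK2, 10.29 in PIP5K1B, 10.10 in MAP3K7 and 9.87 in ErbB3. Every neighbouring group in this order overlapped with the next. The MAP3K11 arrays read 11.13, 11.33, 11.34, 11.14, 11.50 and 11.34, a fitted difference of 0.51 (SE 0.19) that is given without a test. They sat inside the range of the other 70 arrays, 8.99 to 11.92, so Ano1 did not set MAP3K11 apart as Cftr and Ano4 did.

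Ano1 differed among the 12 other groups (F test by limma, adjusted p = 9.1e-07, in a comparison that calls 78.4% of all genes). The adjusted p was 3.1e-05 with the pairs as a random block, where 36.4% of genes are called, and 7.2e-12 without the MAP3K7 pair. That pair holds the highest Ano1 values of its group, so fits without it have a smaller spread inside MAP3K7 by construction. ErbB3 tumours read 10.60, 9.89, 9.29, 10.56, 9.65 and 9.19. All 6 lay below the mean of the other 11 groups, 10.87, and the fitted difference was -1.04 (SE 0.20; limma, adjusted p = 6.9e-05, a comparison in which 26.0% of genes are called). HER2 tumours read 11.36, 11.50, 11.35, 11.42, 11.52 and 11.41, the tightest group. All 6 lay above the mean of the others, 10.73, with a difference of 0.70 (SE 0.19; limma, adjusted p = 0.0060, background 24.2%). FGFR2aIIIb tumours read 11.20 to 11.58 with a median of 11.45, a difference of 0.68 (SE 0.19; limma, adjusted p = 0.018, background 9.16%). With the pairs as a random block the adjusted p of ErbB3 was 7.6e-04 (background 10.1%), that of HER2 0.026 (8.49%) and that of FGFR2aIIIb 0.080 (1.64%), which ends the FGFR2aIIIb call. That call also ended without the array at place 1 or 3 of every group (adjusted p = 0.054 and 0.093). Without the MAP3K7 pair, which is part of the mean of the others, the block gave 6.1e-05 for ErbB3, 0.0011 for HER2 and 0.0033 for FGFR2aIIIb.

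MAP3K7 tumours split widely in Ano1. T1 replicate 2 and T3 replicate 1 read 11.55 and 11.59, at the height of HER2 tumours. The other 4 arrays read 9.73, 9.43, 9.33 and 8.99, the last being the lowest of all 76. The second probe set read 9.46 and 9.37 on the pair and 7.61, 7.48, 7.29 and 7.30 on the others. Over all 6 arrays the difference from the other 11 groups was -0.75 (SE 0.19; limma, adjusted p = 0.0027, background 27.4%), with 4 of 6 arrays below the mean of the others. Without the pair it was -1.46 (SE 0.17; limma, adjusted p = 2.5e-08). With the block the adjusted p was 0.014 over all 6 arrays (background 10.3%) and 1.2e-06 without the pair. The pair holds the highest Ano1 values of the group, so the larger difference and smaller p-values without it are built in. They add no support. Without the array at place 4 of every group, over arrays that include the pair, the adjusted p was 0.054.

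Other groups split by pair as well. The pairs were made from expression on these same arrays, so likeness inside a pair is partly built in. The share of all genes that split in this way was not counted. In ErbB3 tumours 1 pair read 10.60 and 10.56 and the other 4 arrays 9.19 to 9.89. FAK1 T1 replicate 2 and T3 replicate 1 read 11.75 and 11.92, and T1 replicate 1 and T2 replicate 1 read 10.48 and 10.47. In PIP5K1B tumours 1 pair read 10.88 and 10.88 and the other 4 arrays 9.94 to 10.13. In RSK2 tumours 1 pair read 9.96 and 9.86 and the other 4 arrays 10.61 to 10.93. Across all groups the median difference of Ano1 inside a pair was 0.13 (largest 0.37), against 0.27 between other arrays of 1 group (largest 2.60). In 8 groups, ErbB3, FAK1, FGFR2aIIIb, MAP3K7, PIP5K1B, RON+MSP, RSK2 and TNK2, a pair lay apart from the rest of its group by more than the difference inside any pair of that group, by 0.14 in TNK2 and up to 1.82 in MAP3K7, as the plot by pair shows.

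**Figure D3:**
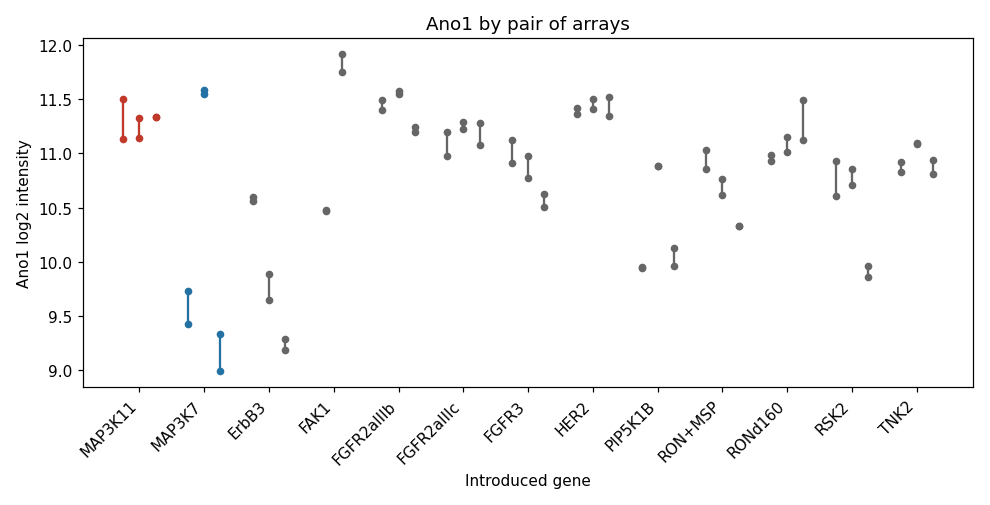
Log2 intensity of Ano1 (y axis) by introduced gene (x axis), with a line joining the arrays of each of the 38 pairs. Lines are short (at most 0.37) while arrays of different pairs in 1 group lie up to 2.60 apart, with a pair standing apart as in MAP3K7, FAK1 and PIP5K1B.

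Marker lists moved with Ano1. Over the 76 arrays it correlated at r = -0.60 with the macrophage list, at -0.41 with the fibroblast list, at -0.40 with the endothelium list and at 0.41 with the luminal epithelium list, described without a test because arrays of a pair or group are not independent points. The macrophage list had 7 of 7 markers measured, all above the control level, with a centred mean of 0.15 to 0.97 on ErbB3 arrays and -0.71 to -0.20 on HER2 arrays. On the MAP3K7 pair it was -0.25 and -0.21, against -0.07 to 0.91 on the other 4 MAP3K7 arrays. The luminal list did not follow Ano1 there, at -0.60 and -0.51 on the pair, against -0.58 to 0.39 on the others. The part of these cells in the Ano1 levels was not tested.

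Ano6, the scramblase, was bright and the least variable of the set. It spans chromosome 15, 95790843 to 95975472, and its group means were, in order, 11.21 in MAP3K11, 11.11 in RONd160, 11.01 in MAP3K7, 10.99 in RON+MSP, 10.93 in HER2, 10.92 in RSK2, 10.86 in TNK2, 10.85 in FGFR2aIIIc, 10.74 in PIP5K1B, 10.72 in FGFR2aIIIb, 10.69 in FAK1, 10.64 in ErbB3 and 10.63 in FGFR3. Neighbours in this order overlapped throughout. The MAP3K11 arrays read 11.34, 11.23, 11.03, 11.12, 11.37 and 11.18, a difference of 0.37 (SE 0.06) given without a test. The highest other array was RONd160 T2 replicate 1 at 11.35, inside the MAP3K11 range.

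Ano6 differed among the 12 other groups (F test by limma, adjusted p = 9.6e-07, 8.5e-04 with the pairs as a random block and 1.7e-06 without the MAP3K7 pair). RONd160 tumours read 10.93, 11.16, 11.16, 11.35, 10.88 and 11.15, all above the mean of the others, 10.82. The difference was 0.29 (SE 0.06; limma, adjusted p = 1.9e-04, background 24.9%, and 0.0078 with the block, background 9.4%), and without the MAP3K7 pair it was 0.30 (adjusted p = 8.9e-05). ErbB3 tumours read 10.85, 10.62, 10.51, 10.79, 10.56 and 10.50, all below the mean of the others, with a difference of -0.22 (SE 0.06; limma, adjusted p = 0.0041, and 0.047 with the block). The adjusted p was 0.0053 without the MAP3K7 pair and 0.050, which ends the call, without the array at place 3 of every group. MAP3K7 tumours read 11.01, 11.03, 11.02, 10.87, 11.26 and 10.85, a difference of 0.18 (SE 0.06; limma, adjusted p = 0.016). That call was lost with the block (adjusted p = 0.11) and without the MAP3K7 pair (difference 0.11, adjusted p = 0.26). Ano6 moved with the macrophage list too, at r = -0.52 over the 76 arrays and -0.47 over the 70 without MAP3K11. That list was at -1.02 to 0.30 on RONd160 arrays, at 0.15 to 0.97 on ErbB3 arrays and at -0.61 to -0.23 on MAP3K11 arrays, and its part in the Ano6 levels was not tested.

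Over Ano1 and Ano6 and the 12 groups, 7 of 24 differences from the other 11 groups were called by limma, 4 for Ano1 and 3 for Ano6. Array weights moved this count to 14, and leaving out the MAP3K7 pair to 9, both without a share of all genes beside them. Without the array at place 3 of every group it was 5, again without that share. In the comparisons with no call of either gene, the share of all genes called was 7.46% for FAK1, 0.923% for FGFR2aIIIc, 0.433% for FGFR3, 14.3% for PIP5K1B, 11% for RON+MSP, 21.9% for RSK2 and 4.0% for TNK2. With the pairs as a random block 5 of the 24 were called, 3 for Ano1 and 2 for Ano6. None of the 4 tests of T2 or T3 against T1 on Ano1 and Ano6 was called by limma, 1 having an unadjusted p under 0.05, and over all genes 0.0% were called, with 306 at an unadjusted p under 0.05 for T2 and 654 for T3.

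**Figure D4:**
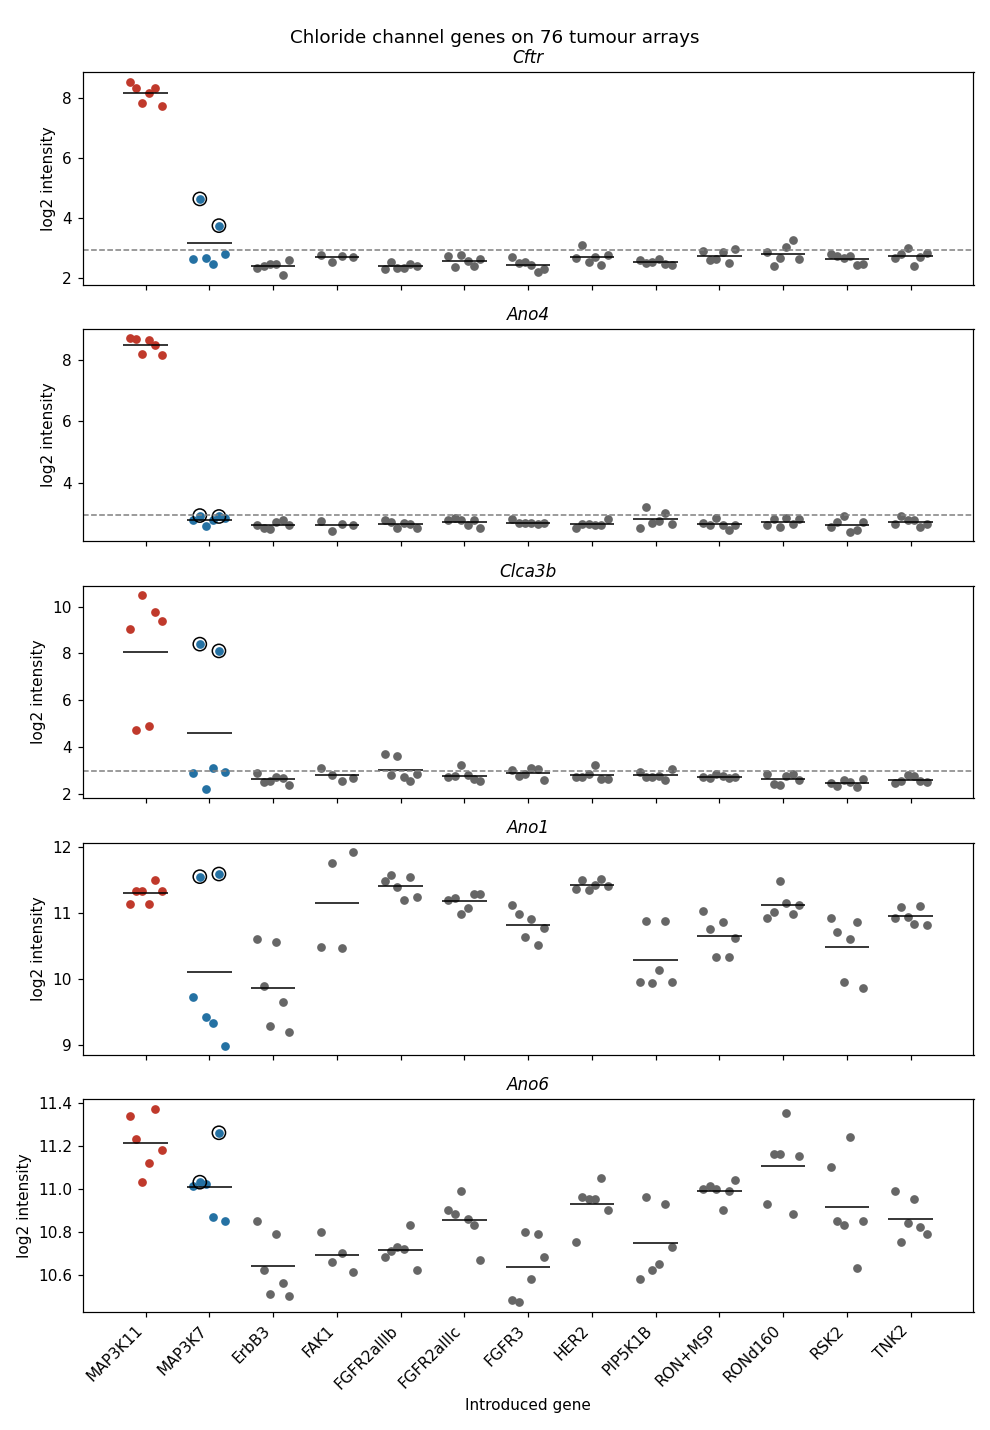
Log2 intensity (y axis) of the 5 genes on each of the 76 arrays by introduced gene (x axis), with the group mean as a bar, the control level of 2.95 dashed and the MAP3K7 pair with high Braf circled. Cftr and Ano4 are high in MAP3K11, Clca3b in MAP3K11 and on the circled arrays, and Ano1 and Ano6 are bright in all groups.

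The genes whose pattern was most like each member were taken by Pearson correlation, as a description over arrays that share groups and pairs. Over the 76 arrays Cftr was most like Ano4 (r = 0.98), then Uchl1 (0.95), a deubiquitinase of neurons, and Tmprss11f (0.95), a serine protease. Uchl1 averaged 6.37 in MAP3K11 and 3.27 elsewhere. Ano4 was most like Cftr, Tmprss11f (0.96) and Speer4a (0.96). These correlations are made by the gap between MAP3K11 and the rest: without MAP3K11 the correlation of Cftr with Ano4 was 0.22, and without the MAP3K7 pair as well it was 0.02. Over those 70 arrays Cftr was most like Tmem178 (0.77), Braf (0.76) and Bcl2l14 (0.76), and without the MAP3K7 pair these 3 correlations were 0.12, 0.07 and 0.42. Ano4, whose values there are at the control level, had no gene above 0.56.

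Clca3b was most like Tmem178 (r = 0.93 over 76 arrays), a membrane protein that restrains calcium release in mouse osteoclast precursors. Tmem178 read 6.22, 6.42, 7.13, 5.37, 7.31 and 7.15 on the MAP3K11 arrays. It read 7.63 and 6.79 on the MAP3K7 pair, 2.95 to 3.69 on the other 4 MAP3K7 arrays and at most 3.88 in the other 11 groups. Unlike Clca3b, it did not fall to a separate band on MAP3K11 T1 replicate 2. Without MAP3K11, Clca3b was most like Braf (0.94), Alpl (0.91), an alkaline phosphatase of bone, and Oscar (0.91), a receptor of osteoclasts. Alpl and Oscar read 8.45 and 7.44 on MAP3K7 T1 replicate 2 and 7.63 and 7.79 on T3 replicate 1, and neither passed 5.16 on any other array. Without the MAP3K7 pair the correlations of Clca3b with Braf, Alpl and Oscar over the remaining 68 arrays were -0.18, -0.03 and 0.22. Krtap4-16 (0.87) and Nebl (0.86) came next over the 76 arrays.

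Ano1 was most like Card19 (r = 0.84), Slco2a1 (0.84) and Zbtb38 (0.82) over the 76 arrays, and like Slco2a1 (0.89), Rai14 (0.84) and Card19 (0.84) without MAP3K11. Slco2a1 carries prostaglandins into cells. It read 11.18 and 11.17 on the MAP3K7 pair and 8.39, 8.43, 8.14 and 8.16 on the other 4 MAP3K7 arrays, the same split as Ano1. Ano6 was most like Dgat1 (0.76), an enzyme of triglyceride synthesis, Csnk1e (0.76) and Itgb3 (0.76) over 76 arrays, and Rnf19a (0.75), Kdm6b (0.71) and Ndrg1 (0.71) without MAP3K11.

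To place the 5 genes among their partners, 7 lists of other chloride transport genes were examined in MAP3K11 against the mean of the other 12 groups. They name 82 genes, of which 70 were measured and 57 passed the filter. Of the 57, limma called 22 higher and 11 lower, 57.9% in all, in a comparison that calls 54.2% of all genes (25.0% higher and 29.3% lower), so the count is near the background. The median difference of the 57 was 0.11, against -0.01 over all genes tested. With the pairs as a random block 27 of the 57 were called, where 39.3% of all genes are. With that block the adjusted p by limma was 3.4e-09 for Ezr, 1.6e-11 for Clcn5 and 2.2e-09 for Lrrc8e. It was 8.9e-05 for Slc12a2 and 1.3e-04 for Aqp5. In Clcn5 and Lrrc8e the MAP3K11 arrays did not overlap with the other 70, for Lrrc8e only narrowly (lowest 6.47, against at most 6.45). The share of all genes without such overlap was not counted, so this is a description of those genes.

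Among CFTR partners and regulators, 2 of 12 were higher and 2 lower. Ezr, the ezrin that ties CFTR to actin, averaged 10.40 ± 0.26 in MAP3K11 (SD, n = 6) and 8.77 in the other 12 groups (difference 1.62, SE 0.18; limma, adjusted p = 1.8e-11). Nherf1, the PDZ scaffold of CFTR, was higher by 0.37, but MAP3K11 was not its highest group (mean 9.34, against 9.48 in the highest other group). Stk39, a kinase that controls chloride cotransporters, fell by 0.59, and Wnk1, which activates it, fell by 0.29, a call that was lost with the mean of all probe sets (adjusted p = 0.46). Foxi1, the ionocyte regulator, averaged 4.29 in MAP3K11 and 3.95 elsewhere. The 5 ionocyte markers had a centred mean of -0.06 to 0.79 on MAP3K11 arrays. It was 0.71 and 0.79 on the MAP3K7 pair and -0.51 to 0.79 on all 70 other arrays. Only 2 of these 5 markers passed the filter on low values. Atp6v0d2 had the largest MAP3K11 difference of the 5, at 6.86 against 5.62 on the other 70 arrays. Atp6v1c2 read 4.29 against 4.25, and Ascl3 differed least. The ionocyte mean in MAP3K11 therefore leans most on Atp6v0d2, while Foxi1 and Atp6v1b1 (4.09 against 3.78) were higher by less. Which markers raise it on the MAP3K7 pair was not tested. The 7 goblet cell markers, 3 of them past the filter, had a centred mean of -0.01 to 0.15, against -0.20 to 0.21. The part of ionocytes or goblet cells in the Cftr level was not tested.

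Among the CLC family, 4 of 9 were higher and 2 lower. Clcn5, a chloride and proton exchanger of endosomes, averaged 10.22 in MAP3K11 and 9.16 in the other groups (difference 1.06, SE 0.09; limma, adjusted p = 1.0e-16). Its relative Clcn4 was higher by 0.79 and the muscle channel Clcn1 by 0.36, while Clcn3 fell by 0.41. Of 4 CLCA genes 3 were called higher, Clca3a1 (difference 1.66), Clca4a (0.33) and Clca3a2. MAP3K11 was not the highest group for Clca3a1, which averaged 7.51 there and 9.30 in FGFR2aIIIb. The other groups averaged 2.92 for Clca3a2, at the control level, so the size of its difference cannot be read, and the means of Clca3a1 and Clca3a2 span the same 2 bands of MAP3K11 arrays as Clca3b. The Clca3a1 call was lost when the array at place 3 or 6 of every group was left out (adjusted p = 0.053 and 0.082). Of the other anoctamins, 2 of 7 passed the filter, and Ano10 was higher by 0.20.

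Among other chloride channels, 7 of 15 were higher and 4 lower. Lrrc8e, a subunit of the volume-regulated anion channel, averaged 6.74 in MAP3K11 and 5.26 in the other groups (difference 1.50, SE 0.16; limma, adjusted p = 2.1e-12). All 3 tweety genes were higher, Ttyh2 by 1.35, Ttyh1 by 0.66 and Ttyh3 by 0.50. Of the cotransporters and exchangers, 3 of 7 were higher and 1 lower. Slc12a2, the NKCC1 cotransporter that loads epithelial cells with chloride from the blood side, averaged 9.77 in MAP3K11 and 10.43 in the other groups (difference -0.66, SE 0.12; limma, adjusted p = 4.6e-06). Slc12a4, a potassium and chloride exporter, was higher by 0.44, the anion exchanger Slc4a2 by 0.32 and Slc26a6 by 0.14, the last not with the block (adjusted p = 0.25).

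The channels and pumps that carry fluid secretion beside chloride had 2 of 8 higher and 2 lower. Aqp5, the apical water channel of secretory glands, averaged 5.57 in MAP3K11 and 7.69 in the other groups (difference -2.11, SE 0.40; limma, adjusted p = 9.2e-06). Its means in the other groups ran from 5.86 to 10.11, so the lowest of them was close to MAP3K11. Single arrays of those groups ran from 4.91 to 11.29, and all MAP3K11 arrays lay inside that range. Kcnn4, the calcium-gated potassium channel that keeps secretion going, fell by 0.60. Atp1b1, a sodium pump subunit, was higher by 0.31 and Scnn1b, a subunit of the epithelial sodium channel, by 0.18, and neither was called with the pairs as a block (adjusted p = 0.23 and 0.31). MAP3K11 was not the highest group for Atp1b1 (mean 7.74, against 7.84 in the highest other group).

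**Figure D5:**
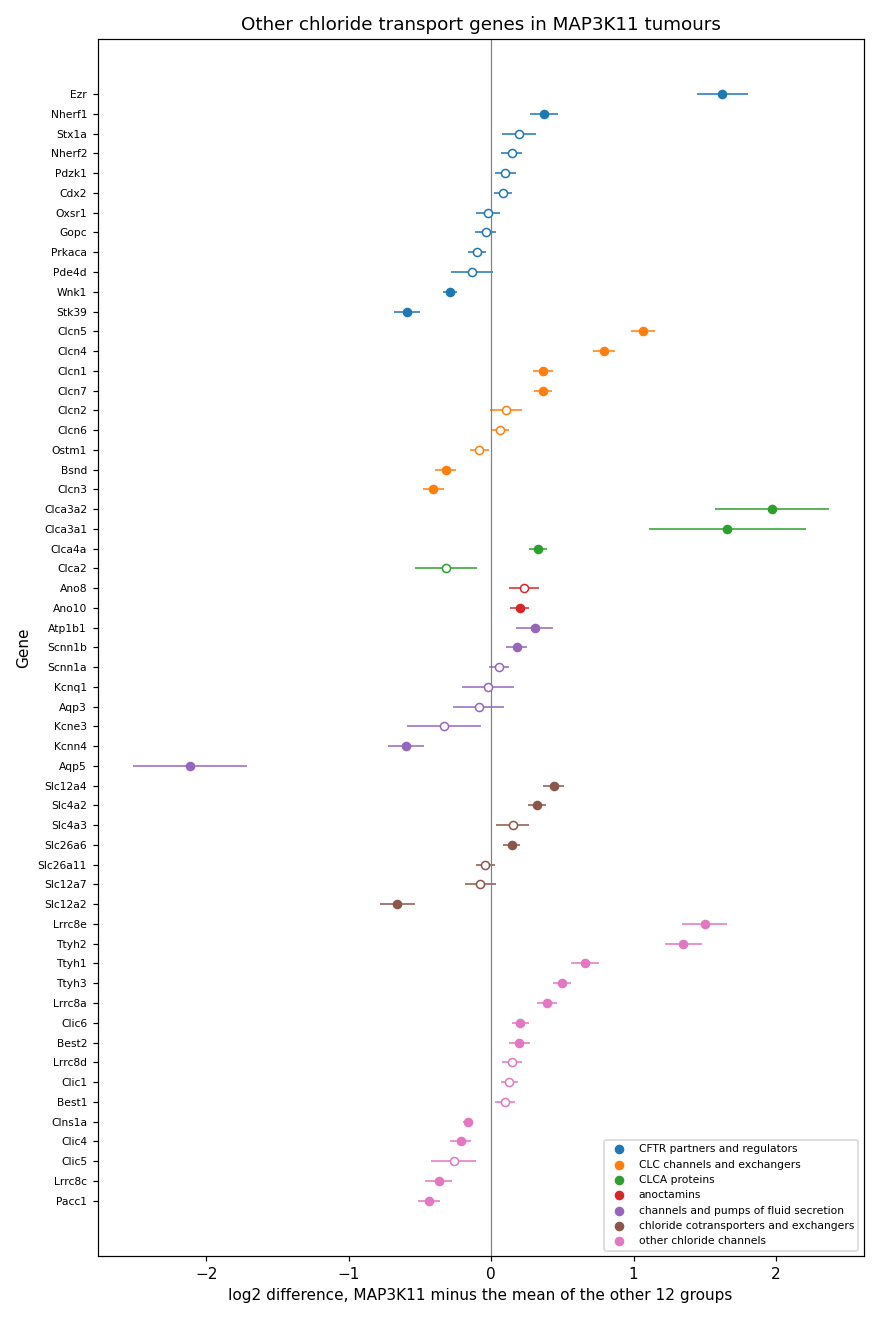
Difference in log2 intensity of MAP3K11 from the mean of the other 12 groups (x axis, bars are SE) for the 57 tested genes of 7 chloride transport lists (y axis), filled where called by limma. Ezr, Lrrc8e and Ttyh2 lie far to the right and Aqp5 far to the left, and the size of the Clca3a2 difference cannot be read because the other groups average 2.92, at the control level. For Aqp5 the MAP3K11 arrays lay inside the range of the arrays of the other groups.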

How the data were processed

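RNA of 76 mouse tumours was measured on Affymetrix arrays. Per the labels, the RNA came from Qiagen RNeasy columns and was labelled as Affymetrix recommends. The authors deposited log2 values, 1 for each of 45101 probe sets and array. Per the submitters' processing notes they were made with affy, and the method and version are not given in the sources used here. Array quality and number limit the precision. The brightest probe set stood for a gene (18194 genes; 34958 probe sets name 1 gene, 932 several and 9211 none) and a gene above the 40th percentile in at least 4 arrays was tested (13868 genes). All arrays were fitted by limma 3.58.1 (statmod 1.5.0, R 4.3.3) with introduced gene and T label as terms and 61 residual degrees of freedom, with two-sided p-values adjusted over the 13868 genes (Benjamini-Hochberg) and a threshold of 0.05. The fit was first checked on simulated independent arrays, which do not carry the likeness inside pairs. Each of the 12 groups other than MAP3K11 was set against the mean of the other 11. Cftr, Ano4 and Clca3b were left out of these tests after their values were seen, since they lie at the control level on most arrays and passed the filter through the arrays they were chosen by. Arrays were paired by 19 autosome medians of 13374 genes; as a random block, the pairs gave a correlation of 0.63. Marker lists are means of log2 values after each gene's mean over the arrays was taken off. Replicate numbers did not pair the arrays: arrays of different groups with the same T label and number correlated at a median of -0.04, and other arrays at 0.00. Named genes are the 5 members, up to 4 called genes per list with the largest difference, and the 3 genes most correlated with each member. The members and lists were chosen with earlier results of these data known. The alternatives changed normalization, filter, probe sets, blocks, weights, prior and arrays.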

Additional observations from a re-analysis of the deposited data

Results flagged for a closer look

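In 3 of the 65 combinations of gene and group, 1 array lay far from the others by Dixon's gap test, where chance gives about 1 in 20. FGFR3 T1 replicate 1 had the highest Ano4 of its group, 2.80, with the other 5 between 2.64 and 2.69, all at the control level. FGFR2aIIIc T2 replicate 1 had the highest Clca3b of its group, 3.22, with the others between 2.53 and 2.78, again at the control level. RON+MSP T2 replicate 2 had the lowest Ano6 of its group, 10.90, with the others between 10.99 and 11.04. The splits by pair in MAP3K7 and MAP3K11 are of 2 arrays each and were not caught by this test.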

How the results depend on the processing

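The fits were repeated under 18 alternatives, 1 of them (pairs as a random block without the MAP3K7 pair) chosen after seeing the data. The 10877 genes called among the 12 groups other than MAP3K11 became 5054 with the pairs as a random block and 5294 when the MAP3K7 pair was left out as well, and 9340 to 10186 when each replicate was left out. The 7 differences of Ano1 and Ano6 called against the other 11 groups became 14 with array weights, 9 without the MAP3K7 pair and 5 to 8 when each replicate was left out. No share of all genes called stands beside these counts. Both genes stayed called by the F test under every alternative. Of the chloride transport genes, 33 were called, 27 to 35 over the alternatives and 28 to 34 when each replicate was left out. For the T labels neither gene was called under any alternative that kept the term. Replicates 1 to 6 are here the places of the arrays in a group, by T label and then title. Leaving out replicate 4 ended the Ano1 call in MAP3K7 (adjusted p = 0.054), and replicate 1 or 3 that in FGFR2aIIIb (0.054 and 0.093). The Ano6 call in ErbB3 ended without replicate 3 (0.050). The Ano6 call in MAP3K7 was also lost with median centring, with the mean of its probe sets, with array weights and without replicate 2 or 5. With the replicate number in the titles as a block (replicate block) 10846 genes, 2 members, 7 member differences and 35 chloride transport genes were called. That block changed no call of a member, and the numbers do not pair the arrays. No called difference changed sign. Some that were not called did, such as Ano1 in FGFR3 (-0.07 to 0.09 when each replicate was left out). Signal at the control level limits Cftr and Ano4 outside MAP3K11, apart from Cftr on the MAP3K7 pair, and Clca3b outside MAP3K11 and the MAP3K7 and FGFR2aIIIb pairs, so no order among those values can be read.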
